A study of Mus musculus with 16 samples.

Results

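Long deletions without microhomology were counted at 1 meiotic recombination hotspot on mouse chromosome 1. They were chosen by length and by the match between their ends: at least 100 bp deleted, and at most 1 base repeated at both ends. There were 214 such deletions summed over 16 libraries, of 5772 distinct deletions of all listed lengths counted the same way, and 211 remained after deletions found in several libraries were counted once. Length and microhomology therefore chose the deletions and are given as a description only. The libraries, labelled as spermatocytes, were made from DNA of dissociated testis cells of adult C57BL/6 mice aged 2 to 5 months, with 4 overlapping amplicons of about 580 bp per genotype and 22 cycles of PCR. The groups were Atm-/- (no copy of Atm), Atm+/- (1 copy), Atm+/+ (both copies) and Spo11-/- (no Spo11), with 4 libraries each, 1 per amplicon. The labels name no treatment, the same strain background is given for all 4 groups, and the alleles are named only by these genotypes. All of the cell suspension was used for mutants and only a part of it for wild-type mice, so the mix and number of input cells may differ between genotypes. The number of animals per library is not given in the sources used here, so p-values measure only how libraries vary, and that variation may be technical. No marker gene can be read from DNA of 1 locus, so the cell type rests on the labels.

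SPO11 makes the double-strand breaks that start meiotic recombination. ATM is a kinase that responds to these breaks and limits further cutting by SPO11 nearby. When broken ends are not repaired from a homologous template, they can be joined directly. Joining can use a few bases of microhomology, which leaves 1 copy of a short repeat at the junction, or can occur with little or no repeat, as in non-homologous end joining.

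The amplicons covered 33764688 to 33765556 of chromosome 1 (mm10), inside the protein-coding zinc finger gene Zfp451 (33761541 to 33815602). Exons and introns were not analysed here. Coordinates are those of the files, and no genome sequence was at hand to check their strand or whether they start from 0 or 1. Deletions are named by their first and last deleted base in the left-most placement.

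The junctions below show what such a deletion looks like in the reads. Each is 30 bases from a read without substitutions, 15 on each side of the junction, and the capitals mark the 3 bases on each side of it. The first set is from Atm-/-: the pair of deletions seen in more than 1 amplicon, then deletions that start near 33765000 or share an end with another, and last a deletion with 4 such reads in 1 amplicon.
33765023 to 33765138 (116 bp, 0 bp of microhomology): acaacgtgagggCTGAGGcatcatcaggaa
33765018 to 33765124 (107 bp, 1 bp of microhomology): ccatcacaacgtGAGGACtgttggactgaa
33765002 to 33765138 (137 bp, 0 bp of microhomology): agaagaagcagtAATAGGcatcatcaggaa
33764999 to 33765133 (135 bp, 1 bp of microhomology): aacagaagaagcAGTACTgaaggcatcatc
33765000 to 33765175 (176 bp, 0 bp of microhomology): acagaagaagcaGTATCTgtctgtctccat
33765023 to 33765239 (217 bp, 0 bp of microhomology): acaacgtgagggCTGCCTcttctggagtct
33765054 to 33765241 (188 bp, 0 bp of microhomology): caccagggaaggAGATCTtctggagtcttt

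The second set is from genotypes with ATM or without SPO11, for comparison: the deletion with the most reads in Atm+/-, and the 1 deletion shared by Atm+/- and Spo11-/-.
33765022 to 33765187 (166 bp, 0 bp of microhomology): cacaacgtgaggGCTCATagacataatgct
33764853 to 33765044 (192 bp, 0 bp of microhomology): caccgactggccTTCGGAaggagagagcca

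To show how the ends compare, these are both ends of 33765023 to 33765138 in the undeleted sequence, with deleted bases in capitals; no base could be moved across the junction without changing the product. The undeleted sequence was rebuilt from the deposited reads.
Left end, 33765008 to 33765037: acaacgtgagggctgTATTAAAGGGCAGCA
Right end, 33765124 to 33765153: TGACTGTTGGACTGAaggcatcatcaggaa

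Over all rows of the files, whatever substitutions a read also carried, long deletions without microhomology were more frequent in every Atm-/- library than in any library of the other 3 genotypes. In Atm-/- there were 41, 49, 45 and 53 distinct deletions in amplicons 1 to 4, or 11.4, 15.9, 12.1 and 16.4 per 1e6 reads. In Atm+/- there were 2, 5, 2 and 4, or 0.553, 1.24, 0.375 and 0.850 per 1e6 reads. Atm+/+ held 2, 2, 2 and 1, or 0.392, 0.454, 0.595 and 0.307 per 1e6 reads. Spo11-/- held 1, 3, 0 and 2, or 0.299, 1.03, 0 and 0.560 per 1e6 reads. The 4 Atm-/- libraries lay far above the other 12, with no overlap, and the other 3 genotypes overlapped one another.

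The mean was 13.9 ± 2.57 distinct deletions per 1e6 reads in Atm-/- (SD, n = 4) and 0.555 ± 0.342 in the other 12 libraries. On the log2 scale the means lay 4.56 apart, which is 23.7-fold. In each of the 4 amplicons the Atm-/- library ranked first, and the two-sided exact permutation test within amplicons gave p = 0.00391, the smallest p it can give. Counted in reads, the deletions took 59.5, 41.7, 42.5 and 58.6 per 1e6 reads in Atm-/- and at most 1.24 in any other library, 6.34 apart in mean log2 values (exact permutation p = 0.00391). This class was proposed with earlier results of these data known, among them an excess of long deletions in Atm-/-, so the p-values are no independent evidence of its direction. Against single genotypes the folds of mean log2 values were 17.3 over Atm+/-, 25.0 over Atm+/+ and 30.7 over Spo11-/-, each in the same direction in 4 of 4 amplicons. With 4 pairs the smallest two-sided exact p is 0.125, so pairs of genotypes were not tested.

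Most of the Atm-/- deletions of this class lay in reads of a particular kind. Of the 691 Atm-/- reads, 541 (78.3%) held an undetermined base, against 0 of 28 reads in the other 3 genotypes. The median was 15 substitutions per read in Atm-/- and 1 in the other 3 genotypes. No read of this class without substitutions held an undetermined base. The values here do not show whether undetermined bases are counted among the substitutions. A deletion end within 20 bp of the midpoint of its amplicon is called a midpoint end here. Midpoint ends were found in 623 Atm-/- reads (90.2%) and in 3 of 28 reads of the others, and in each of the 541 Atm-/- reads with an undetermined base. In distinct deletions, 163 of 188 in Atm-/- and 3 of 26 in the others had a midpoint end. Midpoint ends were not limited to this class. Of all Atm-/- deletions of at least 100 bp, whatever their microhomology, only 43 of 263 lacked one, against 43 of 54 in the others. Among the Atm-/- deletions of that length with 2 bp of microhomology, 13 of 49 lacked one. Without midpoint ends, Atm-/- kept 25 deletions of this class and the other 3 genotypes 23, at 1.83 per 1e6 reads (95% Poisson interval 1.19 to 2.71) and 0.478 (0.303 to 0.717). The fold of mean log2 values was then 3.64 (exact permutation p = 0.0117). The groups overlapped here: Atm-/- amplicon 1, at 0.831 per 1e6 reads, lay below Atm+/- amplicon 4 (0.850) and Spo11-/- amplicon 2 (1.03).

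The 4 Atm-/- libraries form the first submission set by themselves, by the codes in the library descriptions, so genotype and set cannot be told apart for them. Among the other genotypes, the 4 libraries of the second set held 0.375 to 0.850 of these deletions per 1e6 reads. The 8 libraries of the third and the fourth set held 0 to 1.24. None of the 10 deletions of the second set had a midpoint end. The part of the submission set, of substitutions and of undetermined bases in the Atm-/- excess was not tested beyond the values given here.

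**Figure D1:**
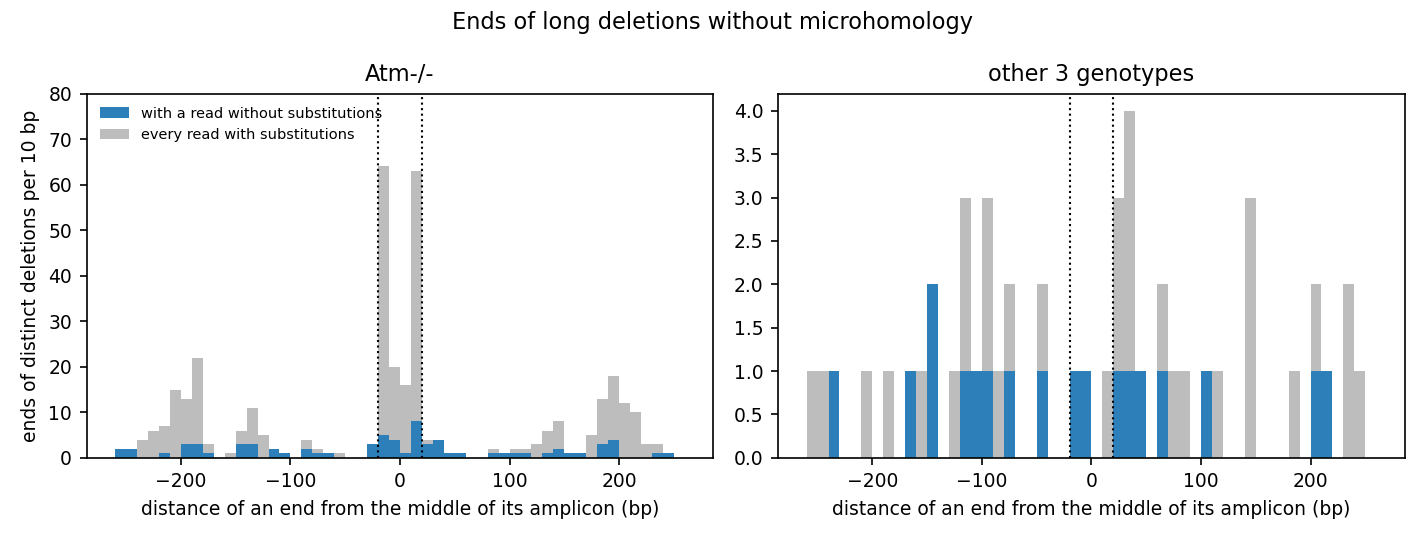
Distance of both ends of each distinct deletion from the midpoint of its amplicon in bp (horizontal axis), as the number of ends per 10 bp (vertical axis, with a different scale in each panel), for Atm-/- and the other 3 genotypes. Blue marks deletions with at least 1 read without substitutions, grey the rest, and dotted lines stand 20 bp on each side of the midpoint. In Atm-/- the midpoint end was the first deleted base for 79 deletions and the last for 84, and most of these have substitutions in every read.

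In reads without substitutions the Atm-/- excess was found again with smaller counts. Atm-/- held 6, 11, 11 and 9 distinct deletions in amplicons 1 to 4, or 1.66, 3.58, 2.96 and 2.78 per 1e6 reads. Atm+/- held 1, 2, 0 and 2, Atm+/+ 0, 1, 1 and 1, and Spo11-/- 0, 2, 0 and 0. The highest of these 12 libraries, Spo11-/- amplicon 2, had 0.686 per 1e6 reads and lay below the lowest Atm-/- library, so the groups did not overlap. The 5 libraries with a count of 0 allow rates of up to 0.562 to 0.898 per 1e6 reads, by the 3 counts that a count of 0 permits. Means were 2.75 ± 0.800 per 1e6 reads in Atm-/- (SD, n = 4) and 0.226 ± 0.232 in the other 12 libraries.

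Mean log2 values lay 3.35 apart, or 10.2-fold (exact permutation p = 0.00391), and Atm-/- again ranked first in each of the 4 amplicons. In reads the fold was 16.1 (exact permutation p = 0.00391). Pooled over amplicons, 37 deletions gave 2.71 per 1e6 reads in Atm-/- (95% Poisson interval 1.91 to 3.74). The 5 in Atm+/- gave 0.283 (0.0918 to 0.660), the 3 in Atm+/+ 0.186 (0.0384 to 0.544) and the 2 in Spo11-/- 0.140 (0.0169 to 0.505). Without molecular identifiers PCR copies cannot be told from separate molecules, and the intervals cover counting error alone. Midpoint ends were still found in 18 of 37 in Atm-/- and 2 of 10 in the others.

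With those also left out, Atm-/- kept 19 deletions and the other 3 genotypes 8. Several of the 19 lay just past the limit of 20 bp, with an end 22 to 29 bp from the midpoint. Among the 8, the nearest end lay 29.5 bp from it. No other limit was run, so how the values without midpoint ends depend on it was not tested. Per 1e6 reads, Atm-/- held 0.554, 1.63, 1.62 and 1.85 in amplicons 1 to 4, and the other 12 libraries 0 to 0.686. Atm-/- amplicon 1, with 2 deletions, lay below Spo11-/- amplicon 2 and above the other 3 genotypes in its own amplicon. Over all 4 amplicons the fold of mean log2 values was 6.03 (exact permutation p = 0.00391), and it was 5.54 without the second submission set (exact permutation p = 0.0123, the smallest possible there).

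**Figure D2:**
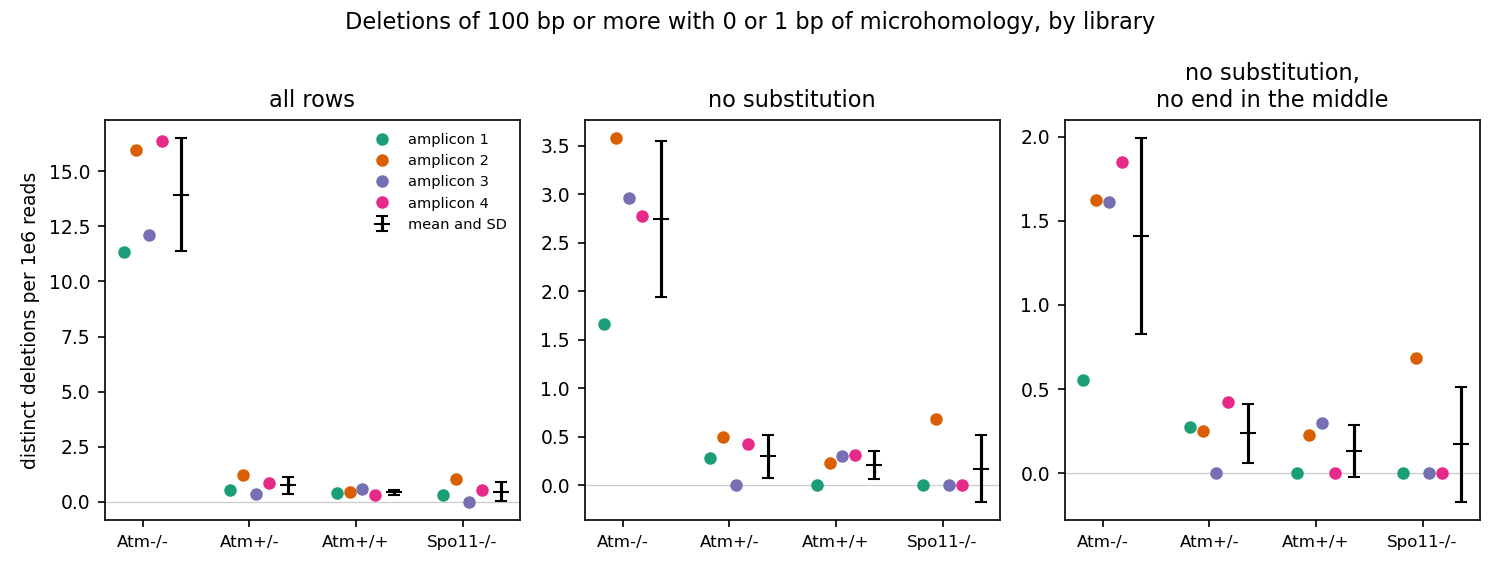
Distinct long deletions without microhomology per 1e6 reads (vertical axis, linear, with a scale of its own in each panel) for each library, by genotype and coloured by amplicon; black bars are the mean and SD of 4 libraries. From left to right, all rows, reads without substitutions, and reads without substitutions and without midpoint ends. The Atm-/- mean is 13.9, 2.75 and 1.41, and Atm-/- overlaps the other genotypes only in the last panel, where Atm-/- amplicon 1 (0.554) lies below Spo11-/- amplicon 2 (0.686).

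The comparison with Spo11-/- asked whether such deletions depend on meiotic breaks where ATM is present. Spo11-/- held 6 of these deletions, against 20 in Atm+/- and Atm+/+ together, with 4 libraries per genotype. The pooled rate in Spo11-/- was 0.419 per 1e6 reads (95% Poisson interval 0.154 to 0.913), near that of Atm+/+ given below. The log2 difference between Spo11-/- and these genotypes was -0.56 (exact permutation p = 0.309), and in reads without substitutions again -0.56 (exact permutation p = 0.420), so neither reached the threshold of 0.05. Its sign changed with the settings: over all rows it was 0.22 with 0 bp of microhomology only, 0.032 at a length threshold of 80 bp, and 0.051 without amplicon 3. With amplicon and submission set both as blocks it was -0.735 over all rows (exact permutation p = 0.295) and -1.18 in substitution-free reads (exact permutation p = 0.115). No difference was detected under these settings. Atm+/- held 13 and Atm+/+ 7, at pooled rates of 0.735 per 1e6 reads (95% Poisson interval 0.391 to 1.26) and 0.434 (0.175 to 0.895), intervals that overlap.

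Neighbouring classes of deletions were used to see whether the Atm-/- excess differed by class. Atm-/- had 13.6 and the other 3 genotypes 48.1 in units of 1e6 reads, from 4 and 12 libraries, so the counts below are not rates. Long deletions with at least 2 bp of microhomology numbered 75 in Atm-/- and 28 in the other 3 genotypes, and 25 and 13 in reads without substitutions. Pooled per read, this class was thus also more frequent in Atm-/-. Over all rows without midpoint ends, deletions of at least 100 bp with any microhomology numbered 43 in Atm-/- and 43 in the others. Of these, 25 and 23 had 0 or 1 bp. The pooled excess of the class with at least 2 bp was therefore also smaller over all rows once midpoint ends were left out. The log2 ratio of long deletions without microhomology to those with it was higher in Atm-/- by 1.42 over all rows (exact permutation p = 0.0586). Limited to substitution-free reads the difference was 0.82 (exact permutation p = 0.332), and neither value passed the threshold. Over all rows it fell to 0.51 without midpoint ends (exact permutation p = 0.512). With deletions of 2 bp of microhomology moved into the numerator the difference was 2.89 over all rows (exact permutation p = 0.00391) and 2.55 in substitution-free reads (exact permutation p = 0.00781). The outcome of this comparison thus depended on the limit between the classes.

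Deletions of 11 to 99 bp without microhomology numbered 143 in Atm-/- and 241 in the other 3 genotypes, and 54 and 29 in reads without substitutions. At depths of 13.6 and 48.1 in units of 1e6 reads, both counts were higher per read in Atm-/- when pooled over libraries. The log2 ratio of long to short deletions without microhomology was higher in Atm-/- by 2.38 over all rows (exact permutation p = 0.0469). In substitution-free reads the difference was 0.27 (exact permutation p = 0.813). Over all rows it turned to -0.89 without midpoint ends (exact permutation p = 0.273). The short class moved with the submission set: over all rows the 4 libraries of the second set held 42 to 63 short deletions each, the 8 of the third and the fourth set 1 to 7, and the 4 Atm-/- libraries 23 to 44. Without the second set the difference over all rows was 1.27 (exact permutation p = 0.148).

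When all substitution-free deletions of at least 100 bp were counted, 37 of 62 in Atm-/- had 0 or 1 bp of microhomology (59.7%, 95% Clopper-Pearson interval 46.4 to 71.9). In the other 3 genotypes 10 of 23 did (43.5%, 23.2 to 65.5). When the same lengths were placed at all positions of the same amplicons, the shares were 93.3% and 93.5%, so both shares lay below that of all placements. Exact junctions, with 0 bp, were 32.3% of the Atm-/- deletions and 26.1% of the others, where all placements gave 75.04% and 75.1%. The shares differed most in long repeats: 4 bp or more was found at 7 of 62 in Atm-/- (11.3%, 4.66 to 21.9) and 12 of 23 in the others (52.2%, 30.6 to 73.2), as a description with no test. These are shares of the long deletions of each group. At depths of 13.6 and 48.1 in units of 1e6 reads, the 7 in Atm-/- were more per read than the 12 in the others. The intervals treat pooled deletions as independent and do not measure how libraries vary. A deletion found in several libraries counts in each. Counted once, those with at least 2 bp numbered 24 in Atm-/- and 10 in the others, against 25 and 13 here. Just outside the limit, 16 Atm-/- deletions had 2 bp, beside 17 with 1 bp.

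**Figure D3:**
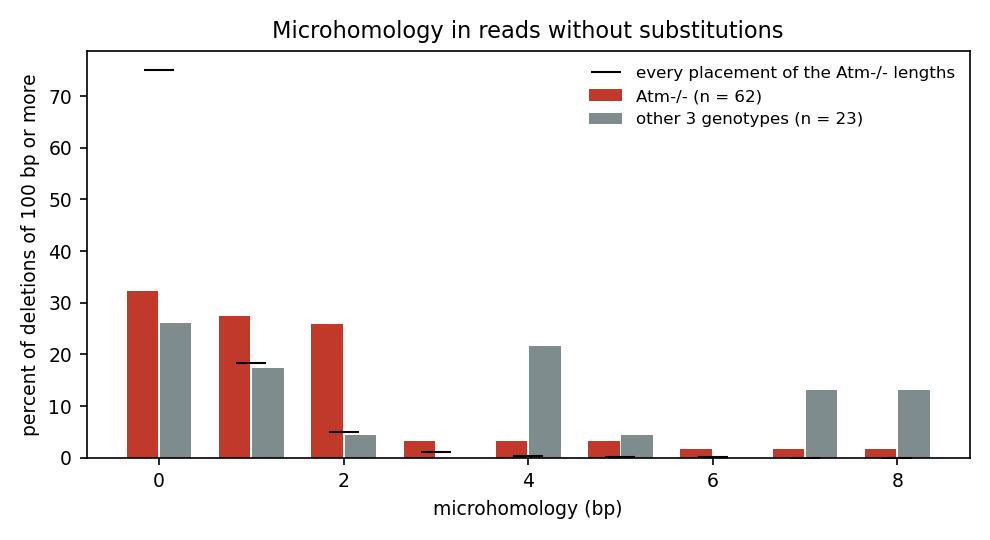
Percent of substitution-free deletions of at least 100 bp (vertical axis) by length of microhomology in bp (horizontal axis), for Atm-/- (62 deletions) and the other 3 genotypes (23), with black marks for every placement of the Atm-/- lengths. Lengths of 0 and 1 bp hold 37 of the 62 and 10 of the 23, and lengths of 4 bp or more hold 7 and 12.

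In length, the Atm-/- deletions without substitutions ran from 107 to 229 bp with a median of 174 bp. Those without a midpoint end had a median of 140 bp (19 deletions) and those with one 177 bp (18 deletions). In the other 3 genotypes the range was 101 to 192 bp with a median of 150.5 bp. The longest deletion listed in any file was 229 bp, so the upper end describes listed lengths only. Few deletions lay at the threshold: over all rows and without microhomology, Atm-/- held 1 of 100 to 104 bp and 2 of 95 to 99 bp, and the other 3 genotypes 4 and 2.

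Along the hotspot, the Atm-/- deletions with no substitution and no midpoint end overlapped most over the centre of the stretch. In the 5 windows of 50 bp from 33764988 to 33765237, all spanned by 4 amplicons, 12, 13, 14, 13 and 7 of the 19 overlapped each window in turn. In the other 3 genotypes 5, 5, 4, 3 and 1 of the 8 did. A deletion counts in each window it overlaps, and both ends must lie in the amplicon, which favours the centre in every genotype. The deleted segments had a median GC content of 51.0% in Atm-/- (18 segments counted once) and 46.9% in the others (8 segments), where the whole stretch has 43.8%. Over all rows without midpoint ends the medians were 50% (23 segments) and 49.8% (22 segments). Because placement favours the centre, the value of the whole stretch is no baseline for these segments.

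Of the 18 Atm-/- segments without substitutions and without midpoint ends, 5 began in the 10 bp from 33764997 to 33765006. This window was picked as the densest in Atm-/-, so no comparison with the other genotypes can be drawn from it. Over all rows without midpoint ends, the densest window of the other 3 genotypes, 33764992 to 33765001, overlapped it and held 3 of their 22 starts. The 3 junctions printed for starts near 33765000 come from this window and join it to 3 different last bases, 33765133, 33765138 and 33765175. The base 33765023 was the first base of a 116-bp and of a 217-bp deletion, and 33765138 the last base of a 116-bp and of a 137-bp deletion.

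**Figure D4:**
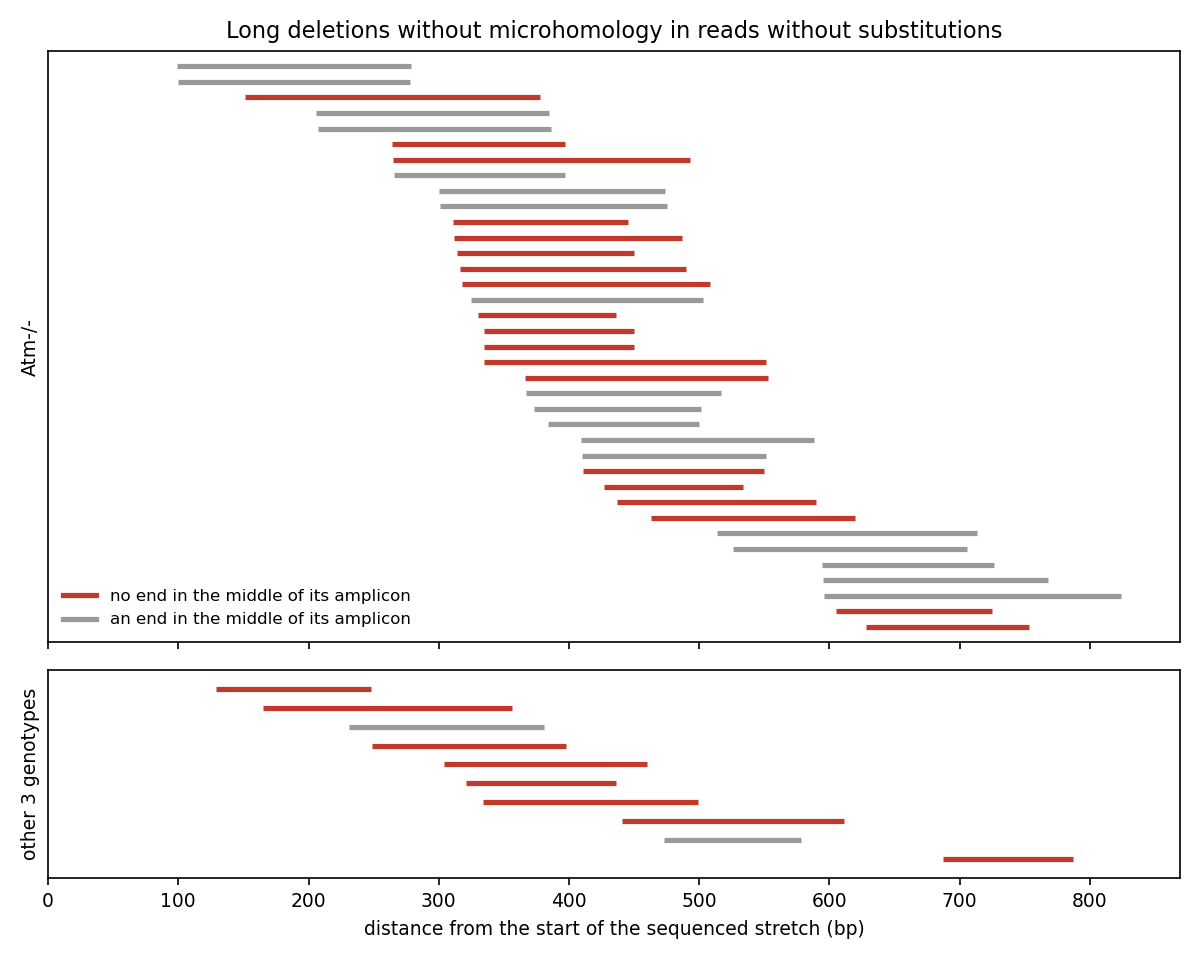
Long deletions without microhomology in reads without substitutions, 1 horizontal line per deletion and library, from its first to its last deleted base, as distance in bp from the start of the sequenced stretch (horizontal axis), ordered by start. Red lines have no midpoint end (19 in Atm-/-, 8 in the other 3 genotypes) and grey lines have one (18 and 2). Red Atm-/- lines overlap most at the centre of the stretch.

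Neighbouring amplicons overlap, so most deletions could be seen in more than 1 PCR. In Atm-/- over all rows, 21 of the 23 unique deletions without a midpoint end could lie within another amplicon. The same deletion was found there for 2, and for 10 one with both ends within 5 bp was found. Of the 163 with a midpoint end, 134 could lie within another amplicon, and 0 were found there exactly and 11 within 5 bp. Counting only other amplicons in which the deletion would have no midpoint end, one within 5 bp was found for 7 of 20 and for 2 of 134. Of the 186 unique Atm-/- deletions and the 25 of the other genotypes, 0 were the same, while 4 of 26 in the other genotypes had an Atm-/- deletion within 5 bp at both ends. Among long deletions with at least 2 bp of microhomology, 4 were shared, which is 5.56% of the 72 in Atm-/- and 19.05% of the 21 in the others. Among short deletions without microhomology, 10 were shared, or 7.52% of 133 and 4.31% of 232. These shares are given as a description, and with 25 deletions outside Atm-/- few shared ones could be seen.

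The deletion found in amplicons 2 and 4 of Atm-/-, 33765023 to 33765138, had 2 reads in each, of which 2 and 1 were without substitutions. The second of this kind, 33765018 to 33765124, had 1 read in amplicon 3 and 3 in amplicon 4, 1 of these without substitutions. In each of amplicons 1 to 4, the Atm-/- deletions with the most substitution-free reads and no midpoint end had few reads. In amplicon 1, 33764839 to 33765066 (228 bp, 1 bp) had 3 such reads and 33765002 to 33765138 had 2. In amplicon 2, 33764999 to 33765133 and 33765000 to 33765175 had 3 each. In amplicon 3, 33765023 to 33765239 had 2 and 33764953 to 33765181 (229 bp, 1 bp) had 1. In amplicon 4, 33765054 to 33765241 had 4 and 33765151 to 33765308 (158 bp, 0 bp) had 2. Among these, 33764953 to 33765181, 33765002 to 33765138 and 33765054 to 33765241 lay just past the limit of 20 bp, with an end 22, 27 and 28.5 bp from the midpoint.

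The Atm-/- deletions with the most reads over all rows were of the other kind. The pairs that led amplicons 1 to 4 had 28 and 26, 23 and 11, 19 and 16, and 42 and 24 reads. All 8 had a midpoint end, and 7 of the 8 had no read without substitutions. The exception, 33764787 to 33764967 in amplicon 1 (181 bp, 1 bp), had 5 substitution-free reads of 28. The deletion 33765282 to 33765480 of amplicon 4 (199 bp, 1 bp), at 42 reads, had a median of 14 substitutions per read.

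In the other 3 genotypes, 25 of 26 deletions of this class had a single read. The exception was 33765022 to 33765187 in Atm+/- amplicon 1, with 3 reads without substitutions. It starts 1 base before the 116-bp and 217-bp deletions of Atm-/-, as the junctions printed above show. The 192-bp deletion 33764853 to 33765044 was found with 1 read in Atm+/- amplicon 1 and with 1 read in Spo11-/- amplicon 2, which are in different submission sets. In Spo11-/- amplicon 2 the other deletion in reads without substitutions was 33764817 to 33764936 (120 bp, 0 bp). Atm+/+ held 33764992 to 33765148, 33764937 to 33765086 and 33765161 to 33765266 in such reads, each with 1 bp of microhomology and 1 read, and the last with a midpoint end. Of the 4 other deletions of Atm+/- in such reads, each with 1 read, the longest were 33765129 to 33765299 and 33764919 to 33765069, the latter with a midpoint end.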

How the data were processed

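The deposited files list the distinct aligned sequences with exactly 1 deletion, per the file headers in the column layout of CRISPResso, of unstated version. The deposited counts are whole reads per distinct sequence, and the deposited percent column relates them to the whole library, so that their quotient gave the depth (2.92 to 5.33 in units of 1e6 reads). Per the submitters' processing notes, coordinates refer to mm10. Of 73567 rows, 25 were left out as not full length. The reference was the commonest base at each position over the rows (at least 93.3% of determined bases more than 20 bp from the ends). Deletions were moved to their left-most placement, merged per library by start and length, and the number of positions they could shift was taken as microhomology. Printed rates, their means and pooled rates are plain counts per 1e6 reads. Tests and folds of mean log2 values used log2 of the count plus 0.5 per 1e6 reads, and ratios of classes likewise add 0.5 to each count.

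Tests were two-sided exact permutation tests in which genotypes were exchanged only within an amplicon, the number that pairs libraries across genotypes by design (Python 3.11.15, numpy 2.4.6). The placement and the test were checked on simulated data. Deletions named are, per Atm-/- amplicon, the 2 with the most reads and the 2 with the most substitution-free reads and no midpoint end, up to 5 per genotype found in 2 or more amplicons, and the 3 with the most substitution-free reads in each other genotype. Ties went to more reads, then length, then start. The class, the lists and the tests were chosen with earlier results of these data known. Alternatives changed the pseudocount, read minimum, length and microhomology limits, merging, placement, midpoint ends, undetermined bases, the block, the submission set and each amplicon.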

Additional observations from a re-analysis of the deposited data

Results flagged for a closer look

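In reads without substitutions, Spo11-/- amplicon 2 stood apart from the other 3 Spo11-/- libraries, which held 0 long deletions without microhomology. It had 0.686 distinct deletions per 1e6 reads, the same 0.686 in reads with one per 1e6 reads, and again 0.686 with midpoint ends left out, from 2 deletions with 1 read each. Chance puts about 1 in 20 groups of 4 past the limit used, and these 3 values of 1 library came from 24 groups tested. That rate does not hold for a group with 0 in 3 libraries, where any single count above 0 passes the limit. The 3 values rest on the same 2 reads.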

How the results depend on the processing

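The Atm-/- excess over the other 3 genotypes kept its direction and passed the exact permutation test under every alternative run, in distinct deletions (log2 1.81 to 5.79 over all rows, 2.47 to 3.72 without substitutions) and in reads (3.19 to 8.19 and 3.09 to 4.36). In distinct deletions over all rows the difference was 2.83 without undetermined bases and 3.58 with near deletions merged, and leaving out each amplicon gave 4.36 to 4.74. With no replicate block (1820 assignments) the difference stayed 4.56 and the exact permutation p was 0.000549; pairing by amplicon changed no call of that excess. The settings that combine the omission of midpoint ends with another change were chosen after seeing the data.

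The sign of the Spo11-/- difference turned with at least 2 reads per deletion (0.038 over all rows and 0.038 without substitutions), with 0 bp of microhomology (0.22 and 0.13) and at 80 bp (0.032 and 0.24), and leaving out 1 amplicon gave -0.90 to 0.051 over all rows. None of these passed the test. The ratio to long deletions with microhomology passed over all rows with a pseudocount of 1 (1.39), at least 2 reads (1.42), 0 to 2 bp in the class (2.89) and 120 bp (1.92), and without amplicon 2 (leaving out 1 amplicon gave 0.99 to 2.01). Over all rows it was 0.51 without midpoint ends, 0.73 without undetermined bases, 0.75 with near deletions merged and 1.25 without the second set. None of these values passed the test. Without substitutions this ratio passed with at least 2 reads (0.86) and 0 to 2 bp (2.55). The ratio to short deletions over all rows no longer passed with a pseudocount of 1 (2.20), 0 bp (2.19), 80 bp (2.33), near deletions merged (1.07), no undetermined bases (0.78), without the second set (1.27) or without any 1 amplicon (2.25 to 2.52). It turned to -0.89 without midpoint ends, with or without undetermined bases. Without substitutions it turned to -0.77 without those ends, -0.49 without the second set and -0.91 without both. The cause was not tested. Counts of 0 to 5 per library outside Atm-/- limit every ratio.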
